A study of Mus musculus with 9 samples.

Results

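The comparison described here is between mouse squamous cell carcinoma (SCC) cells that express a kinase-dead form of focal adhesion kinase (FAK-kd cells) and the FAK null cells from which they were made. It takes 6 of the 9 RNA-seq libraries of the series, 3 of FAK-kd and 3 of FAK null cells, chosen by their labels, and it tests all 19044 genes of the deposited table. The FAK null cells came from skin tumours of mice of the FVB background that carried a tamoxifen-inducible K14-driven Cre and floxed *Ptk2*, the gene for FAK, and Cre was activated in culture. FAK-kd or wild-type FAK (FAK-WT) was returned by retrovirus to a single FAK null clone, followed by hygromycin selection, so that each line is 1 population of clonal origin, and the study names the 3 libraries of a line its biological replicates. A difference between FAK-kd and FAK null cells therefore cannot be told apart from a difference between these particular lines. The 3 FAK-WT libraries entered the fit for its estimate of spread and are given beside some of the named genes.

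FAK is a cytoplasmic tyrosine kinase that is recruited to focal adhesions, the sites at which integrins tie the actin cytoskeleton to the extracellular matrix. After autophosphorylation it binds Src, and the pair phosphorylates adaptors such as p130Cas (*Bcar1*) and paxillin. FAK also acts as a scaffold, through its FERM domain, its proline-rich motifs and its focal adhesion targeting domain, and part of the protein enters the nucleus. A kinase-dead protein keeps those docking surfaces, so the comparison with FAK null cells asks what FAK protein without catalytic activity goes with in the transcriptome.

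The 6 libraries held between 25304994 and 34388720 estimated counts, while FAK-WT replicate 1 held 779755. FAK null replicate 3 stood apart: its deviation from the mean of the 6 libraries followed the GC content of the transcripts (Spearman correlation 0.637 across genes), against -0.299 to -0.198 in the other 5 libraries. That mean includes FAK null replicate 3, which therefore enters the values of the other 5 libraries as well. Across 10805 genes the FAK-kd minus FAK null log2 fold change had a Spearman correlation with GC content of -0.281, and of 0.011 without FAK null replicate 3. The paper states that these SCC cells originate from skin keratinocytes, but few keratinocyte markers were expressed. Of 12 keratinocyte markers in the table, only the hemidesmosome integrins *Itga6* (mean of 261 CPM, counts scaled to library size, in FAK-kd and 289 in FAK null cells) and *Itgb4* (88.6 and 86) reached a mean of 1 CPM over the 6 libraries. *Krt5* had no count in either group, *Krt14* stood at 0.139 and 0.0338 CPM and *Cdh1* at 0 and 0.0427, whereas the fibrillar collagen gene *Col3a1* stood at 1704 and 1436 CPM. That level was not shared by the fibroblast marker *Col1a2*, with means of 6.11 CPM in FAK-kd and 2.5 in FAK null cells. Of 5 fibroblast markers, 4 reached a mean of 1 CPM, and *Col3a1* alone does not give the cells an identity. Summed endothelial, melanocyte and muscle markers did not exceed 0.513, 0.21 and 0.03 CPM in any of the 6 libraries, with *Pecam1*, *Pmel* and *Des* at the head of these lists, and summed leukocyte markers ran from 1.56 to 2.64 CPM in FAK-kd and from 2.8 to 3.39 in FAK null cells.

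*Ptk2* (chromosome 15: 73205102-73423280, minus strand, GRCm38) was at 155, 158 and 176 CPM in the FAK-kd libraries and at 21.8, 23.5 and 19.6 CPM in the FAK null libraries. The groups were far apart, with a log2 fold change of 2.91 ± 0.08 (SE, n = 3 and 3; edgeR adjusted p = 1.02e-11). The FAK-WT libraries, at 213, 216 and 216 CPM, lay above the FAK-kd libraries by 0.40 ± 0.08 on the log2 scale (edgeR adjusted p = 0.00163), so the 2 re-expressed forms were not at the same transcript level. Counts were summed over the gene, and the retroviral transcript, the endogenous transcript and what is left of the floxed allele cannot be told apart in them. The kinase-dead form replaces the ATP-binding lysine by arginine (K454R). The reference sequence around that codon, which is what the 2 forms differ in, lies in exon 17 of 32 of Ptk2-201 at chr15:73268840-73268890 (GRCm38, minus strand), with the AAA codon of residue 454 in capitals.
Ptk2 codon 454 in its reading strand: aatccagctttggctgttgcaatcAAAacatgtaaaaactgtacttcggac

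With an adjusted p of at most 0.05 and a log2 fold change beyond 1 or -1, 174 genes (0.914% of those tested) were higher and 208 genes (1.09%) lower in FAK-kd than in FAK null cells. By adjusted p alone, 1494 genes (7.84%) differed, 756 of them higher and 738 lower. In what follows a gene that rose, fell or changed had an adjusted p of at most 0.05 in edgeR's quasi-likelihood test, and the full threshold is the adjusted p together with the fold minimum. Among the 10873 genes with a mean of at least 1 CPM over the 6 libraries, called expressed here, 119 (1.09%) were higher and 116 (1.07%) lower by the full threshold, and 701 (6.45%) rose and 646 (5.94%) fell by adjusted p alone. The median log2 fold change of the expressed genes was 0.010. Of the 382 genes past the full threshold, 360 were annotated as protein-coding, and in 74 a group had at most 3 counts in each library. Without FAK null replicate 3, 194 genes were higher and 197 lower, and 326 of the 382 remained. Without FAK-kd replicate 2 and without FAK-kd replicate 3 the genes past the adjusted p alone were 761 and 712, and without FAK-kd replicate 3 the genes lower by the full threshold were 134. DESeq2 placed 138 genes higher and 131 lower.

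Among genes with a mean of at least 100 normalized counts and no overlap between the groups, the largest rises outside *Ptk2* were in *Arrb1*, *Gas7* and *Timp3*. *Arrb1*, which encodes the receptor adaptor β-arrestin 1, was at 11.5, 10.5 and 10.4 CPM in FAK-kd and at 0.929, 0.867 and 0.832 CPM in FAK null libraries, a log2 fold change of 3.61 ± 0.18 (adjusted p = 9.69e-09). *Gas7*, an F-BAR protein of the actin cytoskeleton, was at 18, 27.6 and 26.1 against 3.51, 3.04 and 2.27 CPM (3.02 ± 0.19, adjusted p = 9.7e-08). In both genes every FAK-kd library lay above every FAK null library, but the FAK-WT libraries differed in where they fell. *Arrb1* was at 2.52, 3.78 and 4.33 CPM in FAK-WT cells, between the groups, whereas *Gas7* was at 0, 0.532 and 0.663, under both. The metalloproteinase inhibitor gene *Timp3* had the pattern of *Gas7*, at 7.53, 7.85 and 8.78 CPM in FAK-kd, at 0.899, 1.03 and 1.18 in FAK null and at most 0.173 in FAK-WT libraries. FAK-WT minus FAK-kd was -1.44 for *Arrb1*, -5.34 for *Gas7* and -5.70 for *Timp3* on the log2 scale, with edgeR adjusted p of 1.69e-05, 1.88e-09 and 4.69e-09.

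*Crabp2*, a carrier of retinoic acid, had means of 16.8 ± 0.563 CPM in FAK-kd and 3.54 ± 0.339 in FAK null libraries, with FAK-WT libraries at most 2.52 CPM. *Adarb1*, an RNA editing enzyme, was also highest in FAK-kd cells (27.4 ± 3.45 against 7.06 ± 0.519 CPM in FAK null; SD, n = 3). *Scara5*, a ferritin receptor, rose by 2.67 and the X-linked *Xlr3a* by 2.73 on the log2 scale, the latter with 55.1% of its sequence words shared with other genes. In FAK-WT libraries *Xlr3a* was at most 2.5 CPM. *Scara5* was at 12.6, 12.1 and 12.6 CPM there, between its means in FAK-kd (20.2) and FAK null cells (3.16). Other genes, like *Scara5*, were high in both lines that carry FAK protein. *Dynap* was at 59, 61.1 and 57 CPM in FAK-kd, at 9.08, 8.99 and 8.8 in FAK null, and at 94.4, 98.6 and 103 in FAK-WT libraries. *Tenm4*, a teneurin adhesion protein, was at 18.8, 32.8 and 35.6 CPM in FAK-kd and 5.42, 5.09 and 4.74 in FAK null libraries, with FAK-WT libraries between 41 and 55.4. The nuclear body protein *Sp100* (2.55 ± 0.23) and the zinc finger homeobox gene *Zfhx4* (2.43 ± 0.20) did not differ between FAK-kd and FAK-WT cells by the same test (adjusted p = 0.654 and 0.16). The 2 predicted genes *Gm15280* and *Gm10925* share 65.6% and 100% of their sequence words with other genes, and *Gm10925*, at 8.03 to 112 CPM in the FAK null libraries, is uncertain.

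**Figure D1:**
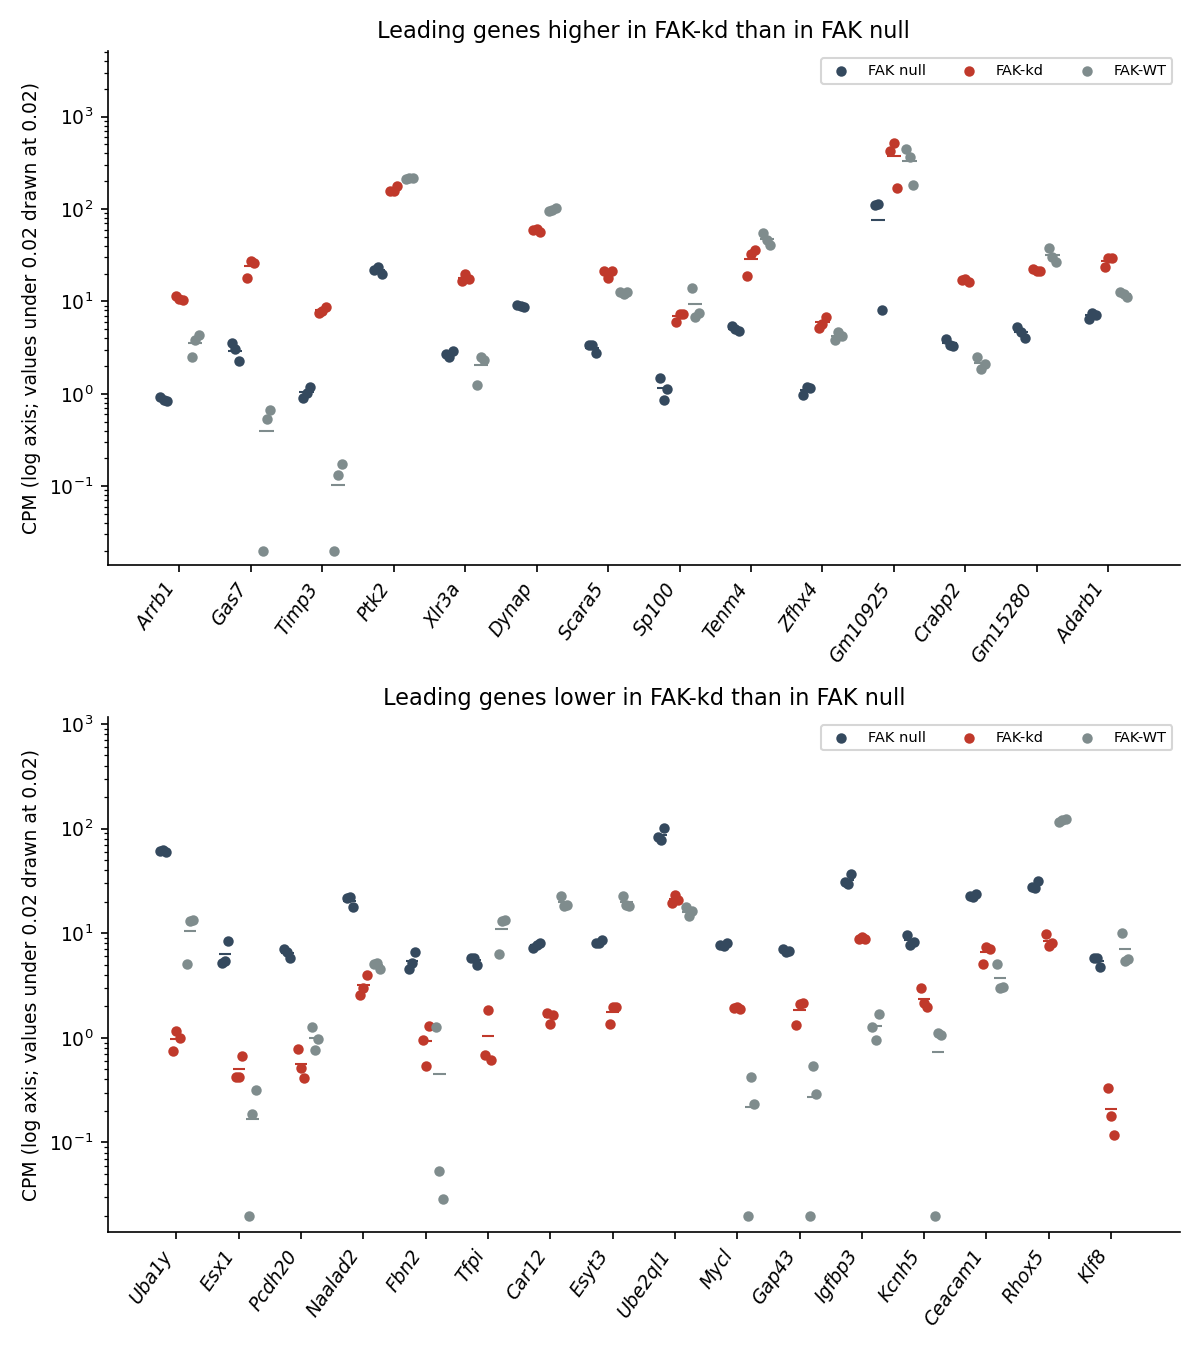
CPM on a log axis of leading genes of the change between FAK-kd (red) and FAK null (dark blue) cells, higher above and lower below, with FAK-WT (grey) beside them. Points are libraries, and bars are group means over 3 libraries. Genes other than Klf8 were picked on having no overlap between FAK-kd and FAK null libraries, and those of Klf8 do not overlap either. FAK-WT libraries fall on either side, as in Gas7 (at most 0.663 CPM) and Rhox5 (at least 116 CPM).

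On the lower side, *Uba1y*, the Y-linked copy of a ubiquitin-activating enzyme, was at 0.75, 1.17 and 0.995 CPM in FAK-kd and at 60.6, 62.9 and 59.8 CPM in FAK null libraries (-5.97 ± 0.17, adjusted p = 1.02e-11). The other 4 genes of the Y-linked list did not pass the test, *Ddx3y* for example with means of 41.8 and 42.6 CPM. That list does not hold every gene of the chromosome: of 7 expressed genes on the Y chromosome, 2 fell by adjusted p alone, *Uba1y* included. In FAK-WT libraries *Uba1y* was at 5.04, 13 and 13.4 CPM, between the groups, and 67.1% of its sequence words occur in other genes. *Klf8*, a Krüppel-like repressor known as a gene downstream of FAK, was at 0.33, 0.18 and 0.117 CPM in FAK-kd and at 5.81, 5.8 and 4.71 CPM in FAK null libraries (-4.68 ± 0.32, adjusted p = 2.31e-07). In FAK-WT libraries *Klf8* was at 10.1, 5.4 and 5.68 CPM, so of the 3 lines only FAK-kd was low. For *Ptk2*, *Arrb1*, *Gas7* and *Klf8* the exact two-sided permutation test of 3 against 3 libraries gave p = 0.1 each, the smallest it can give. As the groups of these genes do not overlap, the test could give no other value.

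*Tfpi*, the tissue factor pathway inhibitor, *Car12*, a membrane carbonic anhydrase, and *Esyt3*, an extended synaptotagmin, were likewise low in FAK-kd cells alone. *Car12* was at 1.71, 1.35 and 1.64 CPM in FAK-kd, at 7.28, 7.69 and 7.97 in FAK null and at 22.7, 18.1 and 18.4 in FAK-WT libraries. FAK-WT minus FAK-kd was 3.58 for *Tfpi*, 3.58 for *Car12*, 3.41 for *Esyt3* and 3.83 for the X-linked homeobox gene *Rhox5* on the log2 scale, each with an edgeR adjusted p of at most 1.14e-06. *Rhox5* fell by 1.77 between FAK null and FAK-kd libraries, and a further identifier of the table that GENCODE M21 does not name holds the same counts. Another set was high in FAK null cells alone. *Igfbp3*, which binds insulin-like growth factors, was at 8.72, 9.2 and 8.81 CPM in FAK-kd, at 31, 29.5 and 36.9 in FAK null and at most 1.67 in FAK-WT libraries. *Ube2ql1*, a ubiquitin-conjugating enzyme, was at 19.5, 23.1 and 20.8 against 82.1, 77.7 and 101 CPM, with FAK-WT libraries at 14.5 to 17.6. *Naalad2* (-2.68), *Pcdh20* (-3.51), *Esx1* (-3.64), *Mycl* (-2.00), the fibrillin gene *Fbn2* (-2.55), the axonal growth cone gene *Gap43* (-1.87), the potassium channel gene *Kcnh5* (-1.85) and the adhesion receptor gene *Ceacam1* (-1.80) fell with means under 10 CPM in the FAK-WT libraries.

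Expression also shifted along whole chromosomes. Among expressed genes the median log2 fold change was 0.225 on chromosome 15 (442 genes) and -0.247 on chromosome 7 (796 genes), while every other numbered chromosome and the X lay between -0.039 and 0.062. On chromosome 15, 140 genes rose and 8 fell, and on chromosome 7, 16 rose and 234 fell. The shift ran through both chromosomes: the median was positive in each of the 11 windows of 10 Mb of chromosome 15 (0.132 to 0.351) and negative in each of the 15 of chromosome 7 (-0.415 to -0.098). Library by library, the median deviation of chromosome 7 from the mean of the 6 libraries was -0.120, -0.119 and -0.129 in FAK-kd and 0.093, 0.093 and 0.190 in FAK null cells. That of chromosome 15 was 0.111, 0.117 and 0.103 in FAK-kd and -0.120, -0.126 and -0.041 in FAK null cells, so that the groups did not overlap on either chromosome. All 3 FAK-kd libraries lay above all 3 FAK null libraries for 54.5% of the expressed genes of chromosome 15, and below them for 54.8% of those of chromosome 7, where 36.4% of all expressed genes had no overlap in either direction. The medians were 0.235 and -0.216 without FAK null replicate 3. Counts of RNA do not measure the number of DNA copies, which was not tested.

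**Figure D2:**
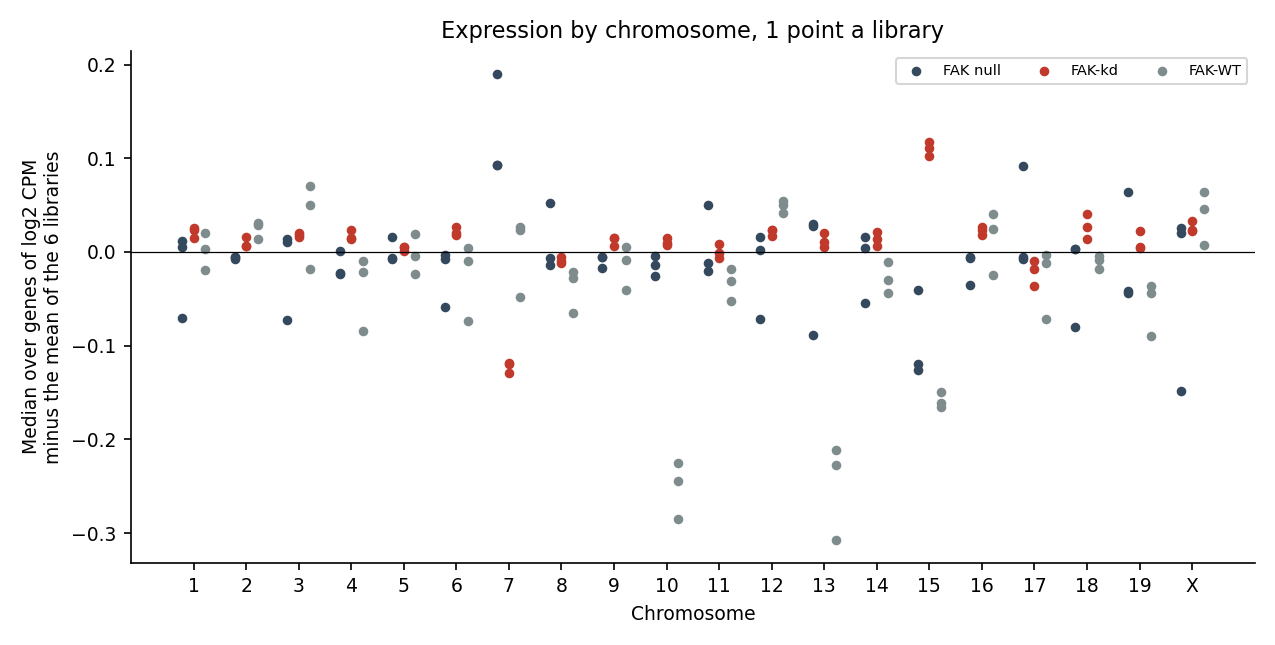
Median over the expressed genes of each chromosome of log2 CPM minus the mean of the 6 FAK-kd and FAK null libraries, with 1 point for each library. The FAK-kd libraries (red) lie at about 0.11 on chromosome 15 and -0.12 on chromosome 7, apart from the FAK null libraries (dark blue), and FAK-WT libraries (grey) lie below both groups on chromosomes 10 and 13.

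*Ptk2* itself is on chromosome 15, and *Arrb1* is on chromosome 7, against the direction of its neighbours. Leaving out both chromosomes, a choice made after seeing the data, 146 genes were higher and 179 lower by the full threshold among 16911 genes, and 591 rose and 484 fell by adjusted p alone. The gene lists below are therefore given with the number of changed members that lie on chromosome 7 or 15 where that touches the count. A list is described by its counts beside the 6.45% of expressed genes that rose and the 5.94% that fell, and no list was tested as a set. Leaving out a library changed the background as well. The shares of expressed genes that rose and fell were 4.94% and 4.23% without FAK-kd replicate 1. They were 3.25% and 3.03% without FAK-kd replicate 2, and 2.95% and 2.89% without FAK-kd replicate 3. Without FAK null replicate 1, 2 or 3 they were 5.38% and 6.08%, 5.04% and 6.29%, and 10.4% and 8.44%. The counts of changed members moved with the background in many lists, as given beside each list.

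Of 31 members of the list of FAK and its signalling partners in the table, 2 rose and 1 fell. The number that rose was 4 without FAK null replicate 3, and the number that fell was 2 without FAK null replicate 2 and 0 without FAK-kd replicate 3. *Asap1*, an ARF GTPase-activating protein that binds FAK, was at 407, 415 and 433 CPM in FAK-kd and 295, 310 and 309 in FAK null libraries (0.46 ± 0.06), and it lies on chromosome 15 as *Ptk2* does. *Bcar1*, the scaffold p130Cas that FAK and Src phosphorylate, fell by 0.52 (53.5, 54.5 and 41.9 against 62.7, 68.1 and 84.5 CPM). *Src* (-0.22), *Pxn* (-0.14) and the FAK paralogue *Ptk2b* (0.25) did not pass the test.

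Of 26 integrins, the receptors upstream of FAK, 3 rose and 3 fell, with none past the fold minimum. Only 1 fell when FAK null replicate 2, FAK-kd replicate 1 or FAK-kd replicate 2 was left out. *Itgb3* was at 16.4, 18 and 20.8 CPM in FAK-kd, 10.4, 12.2 and 10.5 in FAK null and at most 0.479 in FAK-WT libraries. *Itgb8* (0.51) and *Itgb7* (0.57, on chromosome 15) rose, and the matrix-binding subunits *Itga1* (-0.82), *Itga3* (-0.40) and *Itga8* (-0.37) fell. *Itga3*, which pairs with β1 as a laminin receptor, was at 178, 180 and 182 CPM in FAK-kd, at 218, 224 and 269 in FAK null and at 321, 374 and 357 in FAK-WT libraries, with FAK-WT above FAK-kd by 0.98 (adjusted p = 9.23e-07).

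Of 40 focal adhesion genes 7 rose and 3 fell. Those that rose encode actin-linking and LIM proteins, among them vinculin (*Vcl*, 496, 544 and 563 against 395, 419 and 411 CPM), *Csrp1* (204, 184 and 190 against 131, 134 and 136 CPM) and filamin A (*Flna*, 0.25). *Vasp* (-0.50), which elongates actin filaments, its relative *Evl* (-0.38) and *Actn4* (-0.32) fell, *Vasp* and *Actn4* lying on chromosome 7. When FAK null replicate 3 was left out, 16 rose and 3 fell, while the background of expressed genes itself increased to 10.4% higher and 8.44% lower. The number that rose was 3 without FAK null replicate 1, 4 without FAK null replicate 2 and 2 without FAK-kd replicate 2 or 3.

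Of 28 contractile genes and targets of serum response factor (SRF) 5 rose and none fell, and the median was 0.159 over the 18 expressed members. Smooth muscle actin (*Acta2*) was at 118, 106 and 100 CPM in FAK-kd and at 73.9, 72.2 and 78.7 in FAK null libraries (0.53 ± 0.09, adjusted p = 0.00145). In FAK-WT libraries *Acta2* was at 0, 1.49 and 1.44 CPM, so that FAK-WT minus FAK-kd was -6.22 (adjusted p = 8.65e-13). Caldesmon (*Cald1*, 0.51), calponin 2 (*Cnn2*, 0.38), tropomyosin 1 (*Tpm1*, 0.25) and myosin light chain kinase (*Mylk*, 0.61) rose as well, all on other chromosomes than 7 and 15. The actin genes *Actb* (-0.07) and *Actg1* (0.06) and *Srf* (-0.06) did not pass the test. Without FAK null replicate 3, 8 of the list rose, and the list kept a count of 0 lower. Without FAK null replicate 2, FAK-kd replicate 2 or FAK-kd replicate 3, 3 rose in each case. In the list of YAP, TAZ and TEAD genes, 2 rose (*Wwtr1* and *Vgll3*, 0.27 and 0.39) and 1 fell (*Axl*, -0.30) of 21. The number of these that rose was 1 without FAK-kd replicate 2 and 0 without FAK-kd replicate 3, and the number that fell was 2 without any 1 FAK null library.

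Of 18 F-BAR genes, 3 rose and 1 fell: beside *Gas7* these were *Pstpip1* (1.38, at under 1 CPM), *Pacsin2* on chromosome 15 (0.43) and *Fchsd2* on chromosome 7 (-0.55). Among 27 arrestins and regulators of G protein-coupled receptors 6 rose and 2 fell. *Rgs17* was at 21.5, 22.7 and 22.8 CPM against 11, 9.94 and 7.14, and *Txnip* (1.27) and *Rgs20* (0.68) rose, while *Rgs16*, which speeds GTP hydrolysis by Gα subunits, fell by 0.80 (47.1, 44.2 and 43.9 against 72.7, 73.8 and 89.2 CPM). *Rgs8* also rose, on 36 counts in FAK-kd and 7 in FAK null libraries in all, a ratio of 4.59 (95% interval of counting 2.01 to 12.2). Of the arrestin list 1 fell without FAK null replicate 2, FAK-kd replicate 2 or FAK-kd replicate 3.

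Genes that report on ERK, the mitogen-activated kinase that growth factor receptors and adhesion feed, had the largest share of falling members of the lists with at least 9 expressed genes. Of 22 genes of ERK output and feedback, all expressed, 8 fell and none rose, and their median log2 fold change was -0.297. Of those 8, *Dusp2*, *Dusp4*, *Dusp5* and *Dusp7* encode phosphatases that act on MAP kinases, *Spry4* and *Spred3* encode inhibitors of the Ras to ERK route, *Ccnd1* encodes cyclin D1 and *Epha4* an ephrin receptor. *Spry4* was at 36.6, 37.1 and 39.7 CPM in FAK-kd and at 52.6, 52.4 and 51.5 in FAK null libraries (-0.47 ± 0.09, adjusted p = 0.00304). *Ccnd1* was at 2324, 2132 and 2115 against 2789, 2780 and 2988 CPM (-0.38 ± 0.06, adjusted p = 0.00089). *Dusp5* was at 42.9, 35.8 and 33.8 against 54.6, 55 and 76.6 CPM and *Dusp4* at 106, 105 and 101 against 123, 126 and 155 CPM, in both with FAK null replicate 3 the highest.

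The group was not uniform, and its changes were small. Only *Dusp2* (-1.39 ± 0.25) and *Epha4* (-1.14 ± 0.31) were past the full threshold, at means of at most 3 CPM. Other widely used ERK reporters did not pass the test, among them *Dusp6* (0.00), *Spry2* (-0.14), *Egr1* (-0.10) and *Myc* (-0.24), and *Dusp1* had a log2 fold change of 0.45. The falling members *Ccnd1* and *Spred3* lie on chromosome 7, and 6 of the 8 remain without chromosomes 7 and 15. Without FAK null replicate 3 the list had 9 lower and 1 higher, with a median of -0.177, and with a GC correction 10 lower and none higher, with a median of -0.214. Without FAK-kd replicate 2 or FAK-kd replicate 3, 5 members fell in each case, where 3.03% and 2.89% of expressed genes fell. FAK-WT libraries lay above FAK-kd for *Dusp4* (0.71, adjusted p = 3.81e-05), *Dusp2* (1.60, adjusted p = 0.00052), *Spry4* (0.32) and *Spred3* (0.37), while *Dusp5*, *Dusp7* and *Ccnd1* did not differ between the 2 forms by the same test.

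Ligands and receptors of the EGF family, which signal into the same route, had 4 of 18 fall and none rise. Betacellulin (*Btc*) was at 20.4, 12.5 and 11.9 CPM in FAK-kd and at 40.3, 38.5 and 35.4 in FAK null libraries (-1.35 ± 0.16, adjusted p = 6.75e-05), and amphiregulin (*Areg*) at 96.1, 79.9 and 78.7 against 111, 109 and 106 CPM (-0.36 ± 0.08). *Erbb2* (-0.37) and the low *Nrg2* (-1.08) fell as well. The median over the 13 expressed members was -0.032, so the other members did not share this direction, and without FAK null replicate 3 there were 5 lower and 2 higher, and without FAK null replicate 2 there was 1 higher. Without FAK-kd replicate 2 the list had 1 lower and without FAK-kd replicate 3 it had 2. Both ligands stood lower in FAK-WT cells too, *Btc* at 13.4 to 15.7 CPM and *Areg* at 71.8 to 78.5 CPM.

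**Figure D3:**
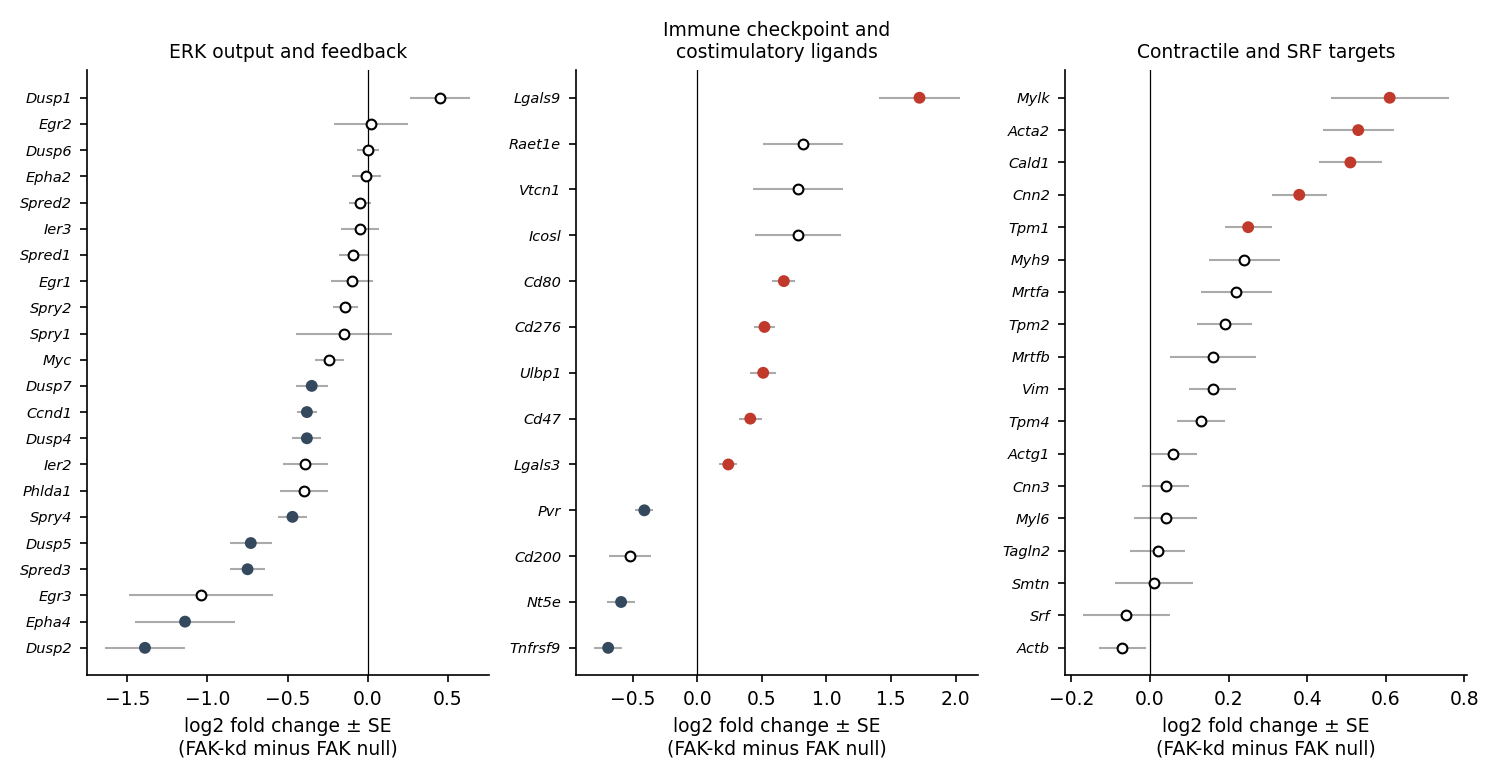
Log2 fold changes, FAK-kd minus FAK null, with standard errors, of the expressed members of the lists of ERK output and feedback, of immune checkpoint and costimulatory ligands, and of contractile and SRF target genes. Filled points had an adjusted p of at most 0.05 (red higher, dark blue lower in FAK-kd): 8 lower in the first list, 6 higher and 3 lower in the second, 5 higher in the third.

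Other growth factor genes changed singly. *Pgf*, placental growth factor, was at 11.2, 13.3 and 13.5 CPM in FAK-kd and 27, 26.4 and 25.5 in FAK null libraries (-1.05 ± 0.11), *Fgfr2* on chromosome 7 fell by 1.43, and *Angpt1* on chromosome 15 rose by 0.89. The lymphatic growth factor gene *Vegfc* had 39 counts in FAK-kd and 3 in FAK null libraries in all, a ratio of 11.6 (95% interval of counting 3.68 to 58.6). In all, 4 of 39 genes of the PDGF, VEGF and FGF families rose and 2 fell, and without FAK-kd replicate 2 there were 2 that rose, while 4 fell without FAK null replicate 3. Among 15 genes of insulin-like growth factor binding and reception, 2 rose (*Irs1* and *Igf2r*, 0.54 and 0.59) and 2 fell (*Igfbp3* and *Igf1r*). The rising ones were 4 without FAK null replicate 3, 1 without FAK-kd replicate 2 and 0 without FAK-kd replicate 3, and the falling ones were 1 without FAK null replicate 2, FAK-kd replicate 1 or FAK-kd replicate 2.

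Surface ligands read by T cells and natural killer cells held the largest share of changed members of the lists with at least 9 expressed genes: 6 rose and 3 fell of 20, 13 of them expressed, with a median of 0.507 over these. *Cd80*, a ligand of CD28 and CTLA-4, was at 22.1, 24 and 21.8 CPM in FAK-kd and 14.8, 14.7 and 13.1 in FAK null libraries (0.67 ± 0.09, adjusted p = 0.0003). *Cd276*, or B7-H3, was at 60, 64.1 and 63.8 against 44.3, 41.7 and 45 CPM (0.52 ± 0.08), and the "do not eat me" signal *Cd47* at 61.6, 58.2 and 55.8 against 47, 46.4 and 38.8 CPM (0.41 ± 0.09). None of these groups of libraries overlapped, which held for 36.4% of all expressed genes. The galectins *Lgals9* (1.72 ± 0.31, at under 2 CPM) and *Lgals3* (0.24) and the NKG2D ligand *Ulbp1* (0.51) rose. The ectonucleotidase *Nt5e* (-0.59), the costimulatory receptor *Tnfrsf9* (-0.69) and the poliovirus receptor *Pvr* (-0.41, on chromosome 7) fell. The 6 higher members lie on other chromosomes than 7 and 15, and 6 higher members were also counted with DESeq2, with the GC correction and without FAK null replicate 3. *Cd80* and *Cd276* were close to FAK-kd in FAK-WT libraries (adjusted p = 0.234 and 0.443), whereas *Cd47* and *Ulbp1* were lower there than in FAK-kd (-0.42 and -0.50). The number that rose was between 4 and 6 whichever of the 6 libraries was left out.

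Genes of innate immunity changed in a few members each. *Il33*, the alarmin cytokine that is also found in the nucleus, was at 21.6, 37.7 and 37.4 CPM in FAK-kd, at 67, 62.7 and 46.3 in FAK null and at 138, 141 and 145 in FAK-WT libraries. It fell by 0.86 ± 0.17 between FAK null and FAK-kd cells (adjusted p = 0.00489), and FAK-WT lay above FAK-kd by 2.14 (adjusted p = 6.22e-07), so the 3 lines were in the order FAK-kd, FAK null, FAK-WT. The gene of its receptor ST2, *Il1rl1*, rose by 0.86 (17, 30.9 and 32.2 against 14.8, 16.6 and 12.8 CPM), and in both genes FAK-kd replicate 1 was the lowest of its group. The call of *Il1rl1* was lost without FAK-kd replicate 2 and without FAK-kd replicate 3. *Il1rl2*, of the IL-36 receptor, had 4 counts in FAK-kd and 52 in FAK null libraries in all, 14.6 times fewer relative to depth (95% interval of counting 5.37 to 55.5). Of 37 chemokines and cytokines, 3 rose, *Ccl9* (1.41), *Il7* (1.19) and *Ccl7* (1.12), and 3 fell, *Il11* (-1.61, on chromosome 7), *Tnfsf9* (-0.64) and *Cx3cl1* (-0.45). The membrane-bound chemokine gene *Cx3cl1* was the most abundant of these, at 337, 299 and 309 against 416, 409 and 465 CPM. Of the 10 expressed members of the chemokine and cytokine list, 2 rose and 3 fell.

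In the NF-κB list 4 of 24 genes rose and 1 fell. *Ripk3*, a kinase of necroptosis, was at 13.5, 13.5 and 13.8 CPM in FAK-kd, at 6.98, 6.27 and 6.75 in FAK null and at most 0.433 in FAK-WT libraries, and the inhibitor of apoptosis *Birc3* (1.54 ± 0.25) and *Traf1* (1.24 ± 0.28) rose with it at under 6 CPM. *Nfkbib* on chromosome 7 fell (-0.50). Of 59 interferon-stimulated and nucleic acid sensing genes, 5 rose and 1 fell, led in level by *Ifitm3*, which restricts virus entry. Of the 25 expressed genes of that list 4 rose and none fell. *Ifitm3* was at 129, 121 and 122 CPM against 62, 59.7 and 59.6 (1.04 ± 0.06, adjusted p = 8.21e-08), and as it lies on chromosome 7 it went against the direction of that chromosome. *Gbp2* (1.57), *Irgm1* (0.86), *Trim25* (0.62) and *Ifi35* (0.43) rose, and *Rtp4*, with no count in the FAK-kd libraries, was at least 2.29-fold lower. In antigen presentation by MHC class I, 4 of 24 genes rose and 2 fell, with the peptide transporter gene *Tap1* at 0.959, 1.26 and 0.878 against 0.24, 0.118 and 0.192 CPM (2.44 ± 0.39), *Tapbp* (0.37), *Tapbpl* (0.64) and *H2-T23* (0.68) higher, and *H2-Q4* (-2.18) and *Cd1d1* (-1.56) lower. Only 1 of this list was counted as risen without FAK null replicate 1 or 2 or FAK-kd replicate 2 or 3, and 2 or 3 of the interferon list without FAK null replicate 2 or any FAK-kd library. Lower members of the MHC list were 4 without FAK null replicate 3 and 1 without any FAK-kd library, those of the interferon list 2 without FAK null replicate 3 and 0 without FAK null replicate 2 or any FAK-kd library, and those of the NF-κB list 2 without FAK null replicate 1.

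Matrix genes were abundant and changed in both directions. Of 50 matricellular and matrix glycoprotein genes, 6 rose and 6 fell. Thrombospondin 1 (*Thbs1*) was at 617, 766 and 811 CPM in FAK-kd and 387, 403 and 427 in FAK null libraries (0.85 ± 0.09, adjusted p = 2.24e-05), and fibulin 3 (*Efemp1*) at 258, 264 and 262 against 101, 100 and 70.9 CPM (1.52 ± 0.11). The basement membrane gene *Nid2* (2.50) and *Spon2* (1.32) rose past the full threshold at under 8 CPM. *Smoc1* (-2.94) and *Fbn2* (-2.55) fell past it, and among abundant genes *Fstl1*, at 306, 232 and 234 against 365, 367 and 347 CPM, fell. Of 48 collagen and laminin genes 5 rose and 1 fell. The 3 collagen VI chains *Col6a1*, *Col6a2* and *Col6a3* rose by 0.31 to 0.36, *Col18a1*, the source of endostatin, was at 355, 358 and 368 against 204, 197 and 229 CPM (0.78 ± 0.09), and *Col1a2* (1.29) rose from a level of at most 3.65 CPM. Of the collagens and laminins 9 rose without FAK null replicate 3 and 2 without FAK-kd replicate 2 or 3, and none fell without FAK null replicate 1 or FAK-kd replicate 2 or 3.

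Among 51 secreted or membrane proteases and their inhibitors, 4 rose and 6 fell. The proteases *Adamts7* (32.1, 32.1 and 34.4 against 68.1, 65.6 and 81.1 CPM, -1.12 ± 0.10), *Adam19* (-0.96) and *Adam12* (-0.82) fell, and so did *Mmp9* (-2.37) and *Mmp15* (-1.31) at about 1 CPM or less. *Serpinh1*, the collagen chaperone HSP47, was at 866, 791 and 789 against 1246, 1171 and 1433 CPM, and it lies on chromosome 7 as *Adam12* does. *Timp3*, *Htra1* (0.72, on chromosome 7), *Plat* (0.55) and *Mmp28* (0.94) rose. In the list of cathepsins and lysosomal genes, *Ctsz* was at 26.9, 26.5 and 27.3 against 9.74, 9.03 and 8.68 CPM (1.56 ± 0.10), and it was the only one of 40 past the full threshold, with 3 up and 1 down by adjusted p alone. The lower member was counted in the fit without FAK null replicate 3 and in none of the other 5 that left out 1 library.

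Developmental signalling pathways changed in scattered members. In the Wnt list 5 of 50 rose and 4 fell. The co-receptor gene *Lrp5* was at 49.7, 49.7 and 51.6 CPM in FAK-kd and 20.9, 19.5 and 24.1 in FAK null libraries (1.23 ± 0.11), the ligand gene *Wnt7b* (1.41, on chromosome 15) and the Wnt-inactivating *Notum* (1.87) rose, and so did *Lgr6* (2.24) at under 1 CPM. The transcription factor gene *Lef1* fell (-1.02), with the receptors *Fzd4* on chromosome 7 (-0.91) and *Fzd5* (-0.42) and the antagonist *Sfrp1* (-0.49). In the TGF-β and BMP list 6 of 50 fell and 1 rose. Follistatin (*Fst*), which binds activin, was at 168, 139 and 138 against 267, 251 and 317 CPM (-0.91 ± 0.10), *Bambi* (-1.28) and *Inhbb* (-1.02) fell past the full threshold, *Id4* (-0.79), *Smad3* (-0.35) and *Tgfb1* (-0.41) fell, and *Fstl3* (1.17) rose. In the Notch list 2 ligand genes, *Dll1* (-0.87) and *Jag1* (-0.49), fell and *Hes6* rose (0.67) of 22. In the Wnt list 2 fell without FAK-kd replicate 2 or 3, and 3 rose without FAK-kd replicate 3. In the TGF-β and BMP list 2 rose without FAK null replicate 3. In the Notch list 2 rose without FAK null replicate 3 and 0 without any other of the 6 libraries, and 1 fell without any FAK-kd library.

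Axon guidance genes, which also steer cell migration, had 5 of 61 rise and 8 fall. *Sema6d* was at 34.3, 34.1 and 31.9 against 54.4, 59.1 and 54.5 CPM (-0.74 ± 0.08) and the receptor gene *Plxna4* at 58.2, 66.4 and 71.5 against 92.2, 100 and 96.6 CPM (-0.56 ± 0.08). *Ntng1* (-2.19), *Sema3d* (-2.59) and *Efna3* (0.809, 1.5 and 1.23 against 2.43, 1.73 and 2.91 CPM) fell past the full threshold, and *Plxnb1*, with 6 counts in FAK-kd and 63 in FAK null libraries, was 11.8 times lower relative to depth (95% interval of counting 5.12 to 33.3). *Sema6a* (2.32) and *Sema3c* (1.25) rose, and so did *Plxnb2* (0.46) and *Sema5a* (0.42), both on chromosome 15, and without FAK-kd replicate 3 the rising members were 3.

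In junctions, 5 of 49 genes rose and 3 fell. The connexin 43 gene *Gja1* was at 458, 438 and 438 against 386, 376 and 353 CPM (0.26), and the desmosomal plaque genes *Pkp1* (0.64) and *Jup* (0.32) rose. *Cldn1*, a tight junction claudin, had no count in the FAK null libraries and 31 counts in the FAK-kd libraries, at least 3.03-fold higher against a floor of 3 counts a library. Among 37 genes of keratins and the cornified envelope, *Krt13* (0.97) and *Krt8* (2.13, on chromosome 15, at 1.38, 0.899 and 0.791 against 0.3, 0.158 and 0.224 CPM) rose and *Krt20* (-1.24) fell. In the list of regulators and markers of epithelial to mesenchymal transition only *Foxc2* changed of 19 (-0.58), and of 18 giant cadherins and protocadherins *Pcdh18* rose (0.35) and *Pcdh20* fell. Of 15 S100 genes 3 rose and none fell, namely *S100a16* (4.62, 3.86 and 4.66 against 0.569, 1.06 and 0.48 CPM), *S100a1* (0.59) and *S100a13* (0.54), neighbours on chromosome 3. Of the junction genes 2 rose without FAK null replicate 2 or any FAK-kd library, and 3 without FAK null replicate 1, while 1 fell without FAK-kd replicate 2. Of the keratin list 0 fell without FAK-kd replicate 3. The list of epithelial to mesenchymal transition had 2 higher without FAK null replicate 3 or FAK-kd replicate 1, 2 lower without FAK null replicate 2 and 0 lower without FAK-kd replicate 1 or 3. Of the giant cadherins and protocadherins 3 rose without FAK null replicate 3 and 0 without FAK-kd replicate 3, and 2 or 3 fell without any FAK null library. Of the S100 genes 1 fell without FAK null replicate 3.

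**Figure D4:**
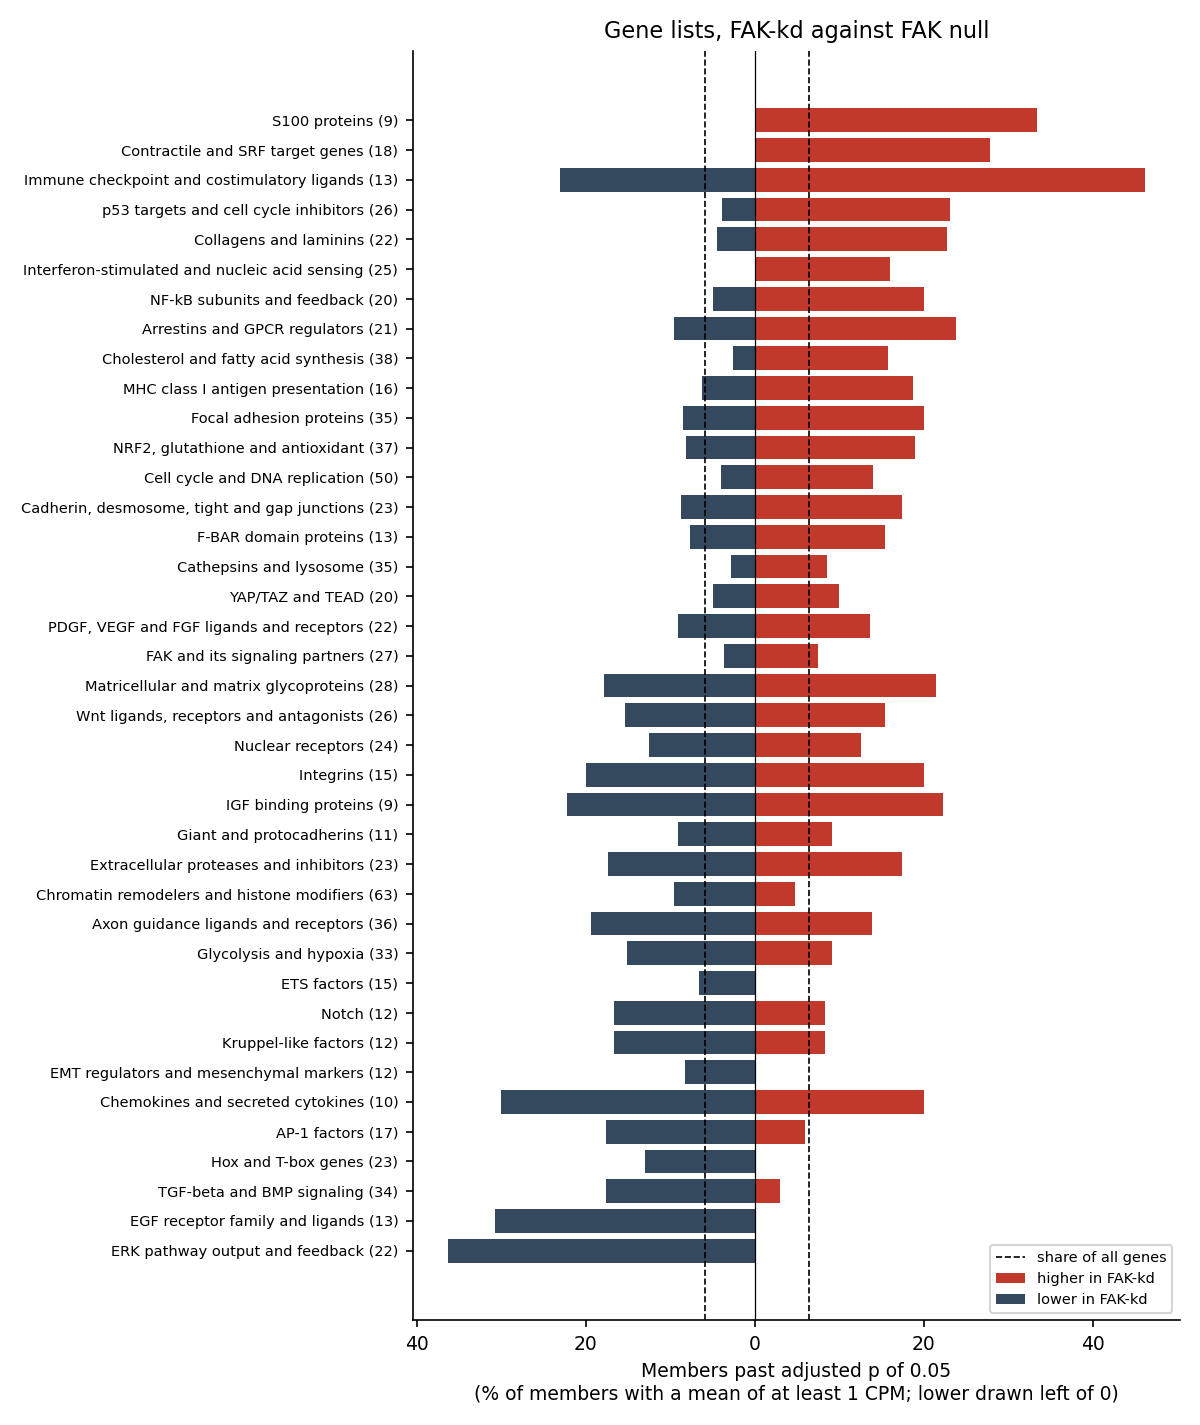
Share of the expressed members of each gene list that rose (red, right) or fell (dark blue, left) by adjusted p alone, in percent, for lists with at least 9 expressed members (their number in parentheses). Dashed lines mark the shares over all expressed genes, 6.45% higher and 5.94% lower. Lists of ERK output, the EGF family, Hox and T-box genes, ETS factors and epithelial to mesenchymal transition lie wholly on the lower side. Those of S100 proteins, contractile genes and interferon-stimulated genes lie wholly on the higher side.

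Genes of the cell cycle and DNA replication had 7 of 50 rise and 2 fall. *Rrm2*, of ribonucleotide reductase, was at 234, 203 and 205 against 153, 155 and 156 CPM (0.47 ± 0.07), and *Mcm4*, *Mcm6*, *Mcm7*, *Pcna*, *Kif11* and *E2f7* rose by 0.25 to 0.36. *E2f8* on chromosome 7 fell (-0.42). *Ccnd2*, cyclin D2, fell past the full threshold: it had 0, 1 and 2 counts in the FAK-kd libraries against 3.72, 3.63 and 4.26 CPM in the FAK null libraries, 130 times lower relative to depth (95% interval of counting 44.3 to 636). FAK-WT libraries held at most 0.399 CPM of *Ccnd2*. Without FAK null replicate 3, 13 cell cycle genes rose and 2 fell, and without FAK-kd replicate 1, 2 or 3 the rising genes were 4, 4 and 3. Among 30 targets of p53 and cell cycle inhibitors, 7 rose and 1 fell. *Trp53inp1* (17.3, 17.6 and 20.2 against 10.8, 11.5 and 7.23 CPM), *Btg2* (0.74), *Ccng1* (0.35), *Eda2r* (0.40), *Polk* (0.51), *Zmat3* (0.24) and *Pmaip1* (1.49, at under 2 CPM) rose, and *Bbc3*, or PUMA, on chromosome 7 fell (-0.59). The number of this list that rose was 2 without FAK-kd replicate 2 or 3 and 4 without FAK null replicate 1 or FAK-kd replicate 1, and the number that fell was 0 without FAK null replicate 3 or any FAK-kd library.

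In metabolism, 8 of 52 genes of the NRF2, glutathione and antioxidant list rose and 4 fell. *Aldh3a1*, an aldehyde dehydrogenase, was at 722, 555 and 578 CPM in FAK-kd and 369, 349 and 358 in FAK null libraries (0.79 ± 0.09, adjusted p = 3.14e-05), and the NRF2 targets *Nqo1* (0.58), *Txnrd1* (0.33) and *Srxn1* (0.29) and the NRF2 gene *Nfe2l2* itself (0.25) rose. *Sod3*, extracellular superoxide dismutase, had 158 counts in FAK-kd and 5 in FAK null libraries, a ratio of 28.2 (95% interval of counting 11.8 to 88), and *Mgst1* rose by 2.97. The glutathione transferases *Gstt3* (-1.33) and *Gsta4* (-0.58) fell. Without FAK-kd replicate 1 or 3 or FAK null replicate 2 the rising genes were 4, 5 and 5, and 2 fell without FAK null replicate 1 and none without FAK-kd replicate 2 or 3. Of 39 genes of cholesterol and fatty acid synthesis 6 rose and 1 fell. Among those that rose were *Me1* (0.53), *Sqle* on chromosome 15 (0.36), *Cyp51* (0.34), *Scd1* (0.34) and *Nsdhl* (0.31), and without FAK null replicate 3 there were 11 higher and 4 lower. Without FAK-kd replicate 1 there were 11 higher, and without FAK-kd replicate 2 or 3 there were 3. None was lower without FAK null replicate 1 or any FAK-kd library. Of 36 genes of glycolysis and hypoxia 3 rose and 5 fell. The HIF-2α gene *Epas1* was at 14.5, 14.8 and 15 against 25.9, 27.2 and 30.3 CPM (-0.91 ± 0.09), the oxygen sensor gene *Egln3* at 7.74, 7.34 and 6.7 against 17.8, 15.8 and 18.4 CPM (-1.26 ± 0.12), and *Ndrg1* on chromosome 15 rose (0.72). The number of this list that rose was 6 without FAK null replicate 3, 1 without FAK null replicate 2 and 0 without FAK-kd replicate 2 or 3.

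Among transcription factors, 1 of 22 AP-1 genes rose and 3 fell, *Fosb* on chromosome 7 the most (8.3, 8.45 and 8.75 against 16.1, 14.7 and 16.7 CPM, -0.89 ± 0.19), then *Maf* (-0.35) and *Fosl2* (-0.24), with *Atf7* on chromosome 15 higher (0.36). None of the AP-1 genes fell without FAK-kd replicate 2 or without FAK-kd replicate 3, and 2 rose without FAK null replicate 3. Of 25 ETS genes only *Erf* on chromosome 7 changed (-0.52). Beside *Klf8*, *Klf13* on chromosome 7 fell (-0.53) and *Klf10* on chromosome 15 rose (0.33), of 15 Krüppel-like factors, of which 2 rose without FAK null replicate 3 and 0 without any other of the 6 libraries. Of 37 Hox and T-box genes 4 fell and none rose. *Hoxb8* was at 10.3, 11.5 and 11.9 against 19.4, 16.4 and 22.3 CPM (-0.79), *Hoxc6* fell against the direction of chromosome 15 (-0.60), *Tbx3* fell by 0.34, and *Tbx20* had 2 counts against 47. Of 36 nuclear receptors 3 rose, *Thrb* the most (1.81), and 3 fell. The nuclear receptors that rose were 6 without FAK null replicate 3 and 1 without FAK null replicate 1, FAK-kd replicate 2 or FAK-kd replicate 3, and those that fell were 6 without FAK null replicate 1 or 2. Of 66 chromatin regulators 3 rose, among them the DNA methyltransferase cofactor *Dnmt3l* (1.27), and 6 fell, *Hdac9* the most (2.7, 3.68 and 3.22 against 8.12, 7.41 and 6.08 CPM, -1.17 ± 0.19), and the number that rose was 6 without FAK null replicate 3 and 1 without FAK-kd replicate 2 or 3.

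The letters of several motifs were counted on both strands in the 250 bases before the start of each gene, from RefSeq (GRCm38.p6), since AP-1 and c-Jun motifs are a subject of the study. The AP-1 letters TGANTCA occurred in 11 of 113 promoters of genes higher by the full threshold (9.73%) and in 10 of 144 of genes lower by it (6.94%), against 5.17% of the promoters of expressed genes and 7.82% of all promoters. The ETS letters CCGGAAGT occurred in 0 and 1 of them, against 7.56% of expressed genes and 3.23% of all promoters, and the TEAD letters GGAATG in 20.4% and 13.9%, against 12.2% of expressed genes and 14.4% of all promoters. The CRE letters TGACGTCA occurred in 2 (1.77%) and 1 (0.694%) of them, against 3.19% of expressed genes and 1.77% of all promoters. The KLF letters CACCC occurred in 71.7% and 68.8%, against 60.6% and 54.5%. The CArG box occurred in 0.885% and 4.17%, against 1.33% and 1.62%. Differences between these shares were not tested. Of the leading genes above, 19 had a promoter in the table, and among these the AP-1 letters stood in those of *Uba1y* (chrY:818399-818648, plus strand) and *Esx1* (chrX:137120327-137120576, minus strand), both of which fell. These 2 promoters are given as examples and not as a full count of the 19. They are printed in the direction of transcription with these letters in capitals, as a description of the sequence and not of binding.
Uba1y promoter: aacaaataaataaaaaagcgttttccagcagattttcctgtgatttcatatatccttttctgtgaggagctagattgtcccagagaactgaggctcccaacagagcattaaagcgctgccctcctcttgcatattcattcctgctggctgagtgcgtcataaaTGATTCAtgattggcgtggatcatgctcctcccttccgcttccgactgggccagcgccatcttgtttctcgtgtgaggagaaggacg
Esx1 promoter: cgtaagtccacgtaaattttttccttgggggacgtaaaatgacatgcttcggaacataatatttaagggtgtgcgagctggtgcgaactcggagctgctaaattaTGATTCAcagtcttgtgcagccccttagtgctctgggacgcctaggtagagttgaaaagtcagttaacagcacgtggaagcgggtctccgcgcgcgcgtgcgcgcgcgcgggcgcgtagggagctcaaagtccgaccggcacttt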

How the data were processed

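RNA-seq was performed on SCC cells, with TruSeq v2 libraries sequenced as paired ends. The authors pseudoaligned reads with kallisto 0.43.1 (per the labels' processing notes, against GRCm38/mm10) and summed the transcripts to genes with tximport. Deposited were expected counts (kallisto's estimated counts) as whole numbers, not scaled to depth. The transcriptome release is not given in the sources used here. Library totals ran from 779755 to 37264636, and intervals and floors cover counting error only.

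Symbols, positions and GC content came from GENCODE M21, which named 18881 of 19044 genes. Counts were tested with edgeR 4.0.16 in R 4.3.3 (TMM, glmQLFit and glmQLFTest, no filter on low counts) in 1 fit that held all 9 libraries and had no factor but the line. Thresholds were a Benjamini-Hochberg adjusted p of 0.05 over all genes and a log2 fold change of 1, as in the study's methods. CPM are on TMM library sizes. Where a group had at most 3 counts in each library, the ratio of summed counts with its exact conditional 95% interval, or a bound against 3 counts a library, was given. Shared sequence was the share of a gene's 31-base words found in another gene. The study names the 3 libraries of a line biological replicates, and p-values measure the spread between these libraries of 1 line each.

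Named genes were *Ptk2*, *Arrb1*, *Gas7* and *Klf8*, up to 15 genes a direction with the largest change past the full threshold (mean of at least 100 normalized counts, no overlap), and up to 5 members a direction of each of 49 gene lists, 1467 genes of which were in the table, with up to 3 past the adjusted p alone where fewer than 2 passed, and the most abundant member where none did. Further list members, and the families of the closing section, were picked with their values in view. Some genes and 1 list are not reported here. The members and lists were chosen with earlier results of these data known. The steps were tested on simulated data. The alternatives were DESeq2 1.42.0, its size factors in edgeR, library size alone, filterByExpr, fits of 6 or 8 libraries, a replicate block, a GC correction by lowess offsets, glmTreat, and leaving out each library. Leaving out chromosomes 7 and 15 was added after seeing the data.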

Additional observations from a re-analysis of the deposited data

How the results depend on the processing

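The counts of 174 genes higher, 208 lower and 1494 past the adjusted p alone stayed within 1.5 times under most alternatives, and where they did not the cause was not tested beyond what the alternative changes. Under glmTreat, which tests against the fold minimum itself, they were 56, 61 and 117, and DESeq2 gave 131 lower genes (138 higher). Leaving out 1 library in turn gave 128 to 194 higher, 134 to 213 lower and 712 to 2211 past the adjusted p. The lowest counts came without FAK-kd replicate 3 (128, 134 and 712) and, for the adjusted p, also without FAK-kd replicate 2 (761), and the highest for the adjusted p without FAK null replicate 3 (2211). With the GC correction the counts were 186, 225 and 2234, with 366 of the 382 genes kept, and with the GC correction and the replicate block 180, 189 and 2041. The medians of chromosomes 7 and 15 stayed between -0.266 and -0.216 and between 0.208 and 0.235. Replicate numbers did not pair the libraries (r of deviations between same-numbered libraries 0.0475, -0.0968 and 0.00584), and the replicate block gave 170, 189 and 1361. Among the named genes, directions changed in 3 at the limit of detection, none past the threshold in any fit: *Pecam1* (-0.52 to 0.13 over the left-out libraries, 0.03 without FAK-kd replicate 1, 0.13 without FAK null replicate 2), *Pmel* (-1.29 to 0.39, 0.39 without FAK-kd replicate 3, 0.16 without FAK null replicate 2) and *Des* (-1.82 to 1.71, with 0.32, 0.33 and 1.71 without FAK-kd replicate 2, FAK-kd replicate 3 and FAK null replicate 1). Of the named genes with a value under an alternative, up to 23 lost the threshold under any but glmTreat, where 55 did. Depth limits what can be said of genes under about 1 CPM, and FAK-WT replicate 1 of those under 3.78 CPM, where 3 counts lie.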

Other observations

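Gene families outside the lists were noticed among the genes past the threshold, after their values were seen, and no family was tested. Each is given with the members that were listed for it and are in the table, which need not be the whole family. All 3 genes of the Sp100 family of nuclear body proteins, neighbours on chromosome 1, were higher in FAK-kd cells: *Sp100* at 6.06, 7.37 and 7.32 against 1.5, 0.867 and 1.12 CPM, *Sp140* at 3.48, 4.67 and 5.15 against 0.449, 0.749 and 0.448 CPM, and *Sp110* at 1.35, 1.29 and 1.29 against 0.18, 0.118 and 0.192 CPM. *Sp110* and *Sp140* share 54.9% and 48% of their sequence words with other genes. Of 8 apolipoprotein L genes, which lie on chromosome 15, 5 were higher past the full threshold, led by *Apol10b* (17.3, 18.2 and 17.5 against 7.49, 6.55 and 5.86 CPM) and *Apol7a* (7.56, 9.38 and 9.25 against 3.6, 3.67 and 4.1 CPM). *Apol8* was lower (-1.67), on 5, 6 and 6 counts against 20, 9 and 21. Of the 5 higher, *Apol9b* shares 64.6% of its sequence words with other genes and the others 13.6% to 28.9%. Over all genes tested 0.914% were higher past the full threshold, and on chromosome 15 20 of 699 genes. Of 9 genes of the Ly6 family on the same chromosome 4 were higher past the full threshold, among them *Ly6c1* and *Ly6a* with 39.5% and 22.9% of words shared. *Ly6e* was at 168, 174 and 174 against 79, 74.2 and 77.8 CPM (1.16 ± 0.06) and *Psca* at 9.53, 8.87 and 9.34 against 2.91, 3.43 and 3.68 CPM, both far above the chromosome's median of 0.225.

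Hyaluronan, a matrix polysaccharide, is made by 3 synthases. *Has1* was at 16, 20.6 and 19.8 against 5.03, 3.9 and 6.15 CPM (1.90 ± 0.16), *Has2* had 16 counts against none, at least 1.57-fold higher, and *Has3* (-0.94) did not pass the test, nor did the receptor gene *Cd44* (0.01) or the 5 genes of breakdown. Among 8 listed genes of dermatopontin and small leucine-rich proteoglycans, a part of that family, *Dpt* (3.98), *Ogn* (1.81) and *Omd* (1.02) rose, with none of the 6 libraries above 5.27 CPM.

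FAK-WT libraries, not part of the comparison, had chromosome medians of their own: FAK-WT minus FAK-kd had a median log2 fold change of -0.263 on chromosome 10 and -0.225 on chromosome 13 as well as -0.271 on chromosome 15 and 0.152 on chromosome 7. The pseudogene *Rpl10-ps1*, with the most negative log2 fold change of the table's called genes (-15.02), was at 426 CPM in FAK null replicate 3 and at 0 in the other 8 libraries.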
